A study of Rattus norvegicus with 167 samples.

Results

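Genes for potassium channel subunits were described across rat spinal cord after complete transection. A member was any gene whose single symbol in the probe annotation of the array starts with Kcn followed by a letter, with Kcnj10 left out, and each was read from its probe set with the highest mean. This gave 74 of 14218 genes with a named probe set, and 50 of them lay above the 40th percentile of their array in at least 3 arrays and were tested among 12041 genes. The symbols cover pore-forming subunits and also genes that form no pore, namely Kcnab (cytoplasmic beta subunits), Kcnip (calcium-binding partners), Kcne and Kcnmb (accessory subunits).

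The samples were spinal cord of adult female Wistar rats cut through completely at thoracic level T7/8, where 5 mm of cord was taken out. The injured arms were NT3 (a chitosan tube carrying neurotrophin-3 bridging the gap), ET (an empty tube) and LC (lesion control, no tube), and they were set against uninjured cord; the labels name no genetic alteration in any of these rats. Pieces of 5 mm came from 3 segments (rostral, lesion site, caudal) on days 1, 3, 10, 20, 30, 60 and 90, except that lesion site pieces began on day 3 and those of ET exist for that day alone. The 167 Affymetrix arrays made 55 groups of 3 and 1 group of 2: 21 NT3, 20 ET and 21 LC arrays rostrally, 18 NT3, 3 ET and 18 LC arrays at the lesion site, 21 arrays of each arm caudally, and 3 uninjured arrays. Whether replicates came from different animals is not in the labels; the p-values therefore cover just the spread among these samples, which may be technical, and precision is limited by the number of arrays. All values are the authors' deposited log2 values, in which a difference of 1 is a factor of 2, and signals of different genes were not set against each other. Where a group holds more than 3 arrays, 3 values given for it are its lowest, median and highest.

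Potassium channels let potassium leave the cell, which holds the resting potential negative and ends the action potential. In myelinated axons of the cord, Shaker-type channels (Kcna) sit beside the nodes of Ranvier with their beta subunits (Kcnab), Shaw-type channels (Kcnc) allow fast repetitive firing, and Shal-type channels (Kcnd) with their Kcnip partners carry the transient current of dendrites. Inward rectifiers (Kcnj) and tandem-pore leak channels (Kcnk) set the resting conductance of neurons, glia and vessels, and the calcium-activated channel Kcnn4 is known from leukocytes and activated microglia.

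Promoters of 4 members are printed because these genes stand at either end of the injury response described below: Kcnc1 and Kcnd2 were among the 3 lowest members at the lesion site, and Kcnj15 and Kcne4 among the 4 highest. The RefSeq promoter table of assembly GRCr8 held 51 of the 74 members; Kcnn4 and Kcnk6 were not in it. Each sequence runs 5′ to 3′ over 250 bases before and 50 after the annotated start. Capitals mark the motifs searched on both strands: the GC box GGGCGG, the AP-1 element TGANTCA, and the left and right arm of the neuronal silencer element RE1, TTCAGCACC and GGACAGCG.
Kcnc1 promoter, chr1:106038997-106039296, + strand: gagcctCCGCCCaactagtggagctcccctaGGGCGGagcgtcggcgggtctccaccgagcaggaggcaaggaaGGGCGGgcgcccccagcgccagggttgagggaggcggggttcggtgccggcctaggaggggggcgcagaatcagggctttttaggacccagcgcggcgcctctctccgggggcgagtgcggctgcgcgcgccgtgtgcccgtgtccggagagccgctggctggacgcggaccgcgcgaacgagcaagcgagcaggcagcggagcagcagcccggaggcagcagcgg
Kcnd2 promoter, chr4:50742235-50742534, + strand: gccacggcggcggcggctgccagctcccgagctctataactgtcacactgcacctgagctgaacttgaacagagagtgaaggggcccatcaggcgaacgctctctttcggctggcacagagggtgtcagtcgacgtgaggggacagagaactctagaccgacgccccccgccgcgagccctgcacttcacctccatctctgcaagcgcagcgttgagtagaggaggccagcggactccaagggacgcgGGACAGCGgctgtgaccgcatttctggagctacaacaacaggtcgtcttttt
Kcne4 promoter, chr9:87695798-87696097, + strand: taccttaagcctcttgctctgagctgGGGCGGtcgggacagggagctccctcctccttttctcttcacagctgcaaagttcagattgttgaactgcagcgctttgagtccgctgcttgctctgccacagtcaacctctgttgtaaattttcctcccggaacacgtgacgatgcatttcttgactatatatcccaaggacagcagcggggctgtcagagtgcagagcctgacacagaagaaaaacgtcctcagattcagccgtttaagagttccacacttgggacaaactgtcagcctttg
Kcnj15 promoter, chr11:48070700-48070999, + strand: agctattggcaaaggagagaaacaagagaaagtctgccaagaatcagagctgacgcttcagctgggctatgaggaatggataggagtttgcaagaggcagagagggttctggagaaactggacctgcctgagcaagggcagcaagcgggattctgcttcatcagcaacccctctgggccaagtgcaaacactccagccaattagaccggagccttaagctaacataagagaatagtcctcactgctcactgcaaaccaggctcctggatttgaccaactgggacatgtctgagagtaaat
Here Kcnc1 holds 3 GC boxes, Kcnd2 holds 1 right arm of RE1, Kcne4 holds 1 GC box and Kcnj15 holds none of these letters. The GC box stood in 29 of 51 member promoters (56.9%), against 34.9% of the 27457 promoters of the table. The right arm of RE1 stood in 3 member promoters (5.88%), those of Kcna2, Kcnd2 and Kcnh5, against 1.28% of all, and the left arm in 1 (1.96%) against 0.379%. The AP-1 element was in 3 (5.88%), against 7.33% of all. These matches are a description of the letters only.

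Some properties of the arrays bear on the members. The difference between 3-prime and 5-prime beta-actin probe sets, a sign of RNA degradation, averaged 0.93 to 1.17 over the injured arms with 18 or more arrays and 1.35 in ET at the lesion site, against 1.72 (SD 0.51) in uninjured cord, where 1 array reached 2.29. RT1-CE10, a class I histocompatibility gene, lay above or below a value of 9 by whole groups in most of the series: 3 of 20 NT3 groups, 6 of 15 ET groups and 8 of 20 LC groups lay wholly above it, 4 LC groups were mixed, and all uninjured arrays lay below. Comparisons of treatments were therefore also made on the days on which it was alike. At the lesion site, replicate 1 of NT3 on day 3 stood apart: its mean over the neuron markers was -2.20 relative to uninjured cord, against -3.93 and -4.03 in the other replicates. Counts without this array, replicate 5 of LC on day 20 at the lesion site and uninjured replicate 2 are given beside the injury and lesion site counts.

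At the lesion site of LC on days 10 to 30, most tested potassium channel genes were below uninjured cord, among them every tested one of the Shaker, Shaw and Shal types, and a smaller set lay above it. In limma, 33 members were lower and 12 higher of 50 (45 called, beside 79% of all genes called, 37.1% lower and 41.9% higher). The median member differed by -1.19, against 0.069 for all tested genes. Members lower at least 2-fold numbered 26, beside 16% of all genes, and 5 were higher at least 2-fold, beside 17.7%. Of the 39 members above the percentile in every uninjured array, 31 were lower and 6 higher; of the 8 with no uninjured array above it, which passed through injured arrays alone, 1 was lower and 6 were higher. Without the 3 arrays that stood apart, 31 were lower and 11 higher. In tissue pieces, fewer cells of a type and less RNA per cell cannot be told apart.

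**Figure D1:**
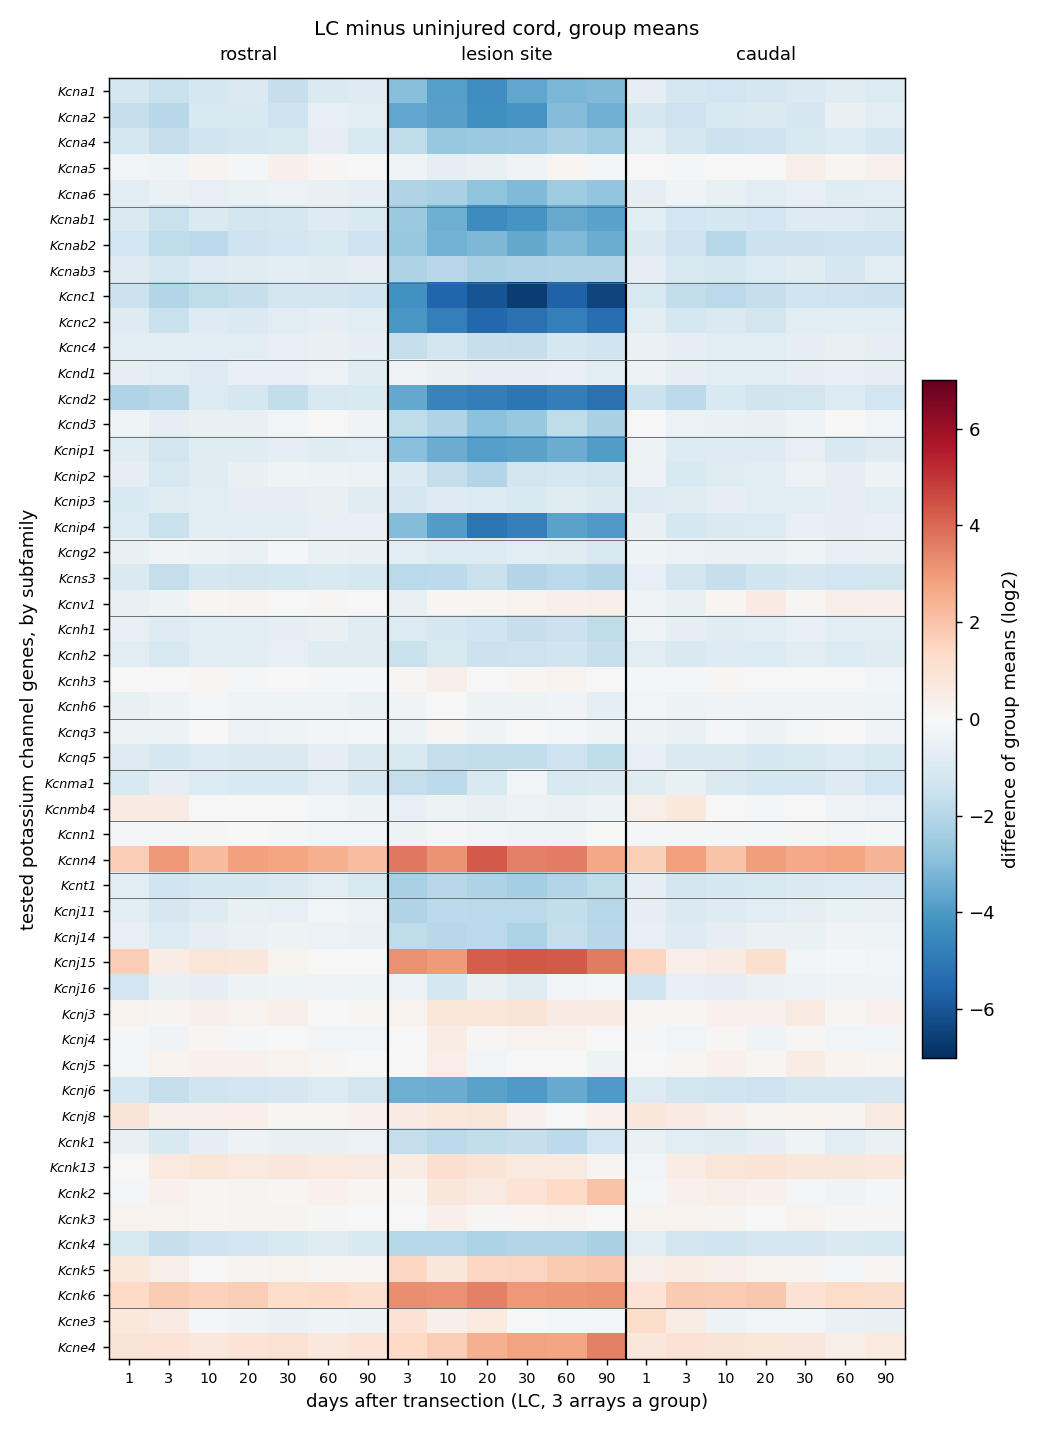
Differences of group means, LC minus uninjured cord (log2, colour scale), for the 50 tested potassium channel genes (rows, grouped by subfamily between grey lines) on each day (columns, 3 LC arrays a group) in the rostral, lesion site and caudal segments. The blue band of the Kcna, Kcnab, Kcnc, Kcnd and Kcnip rows, apart from Kcnd1, is deepest at the lesion site, down to -6.64 for Kcnc1 on day 30. The red rows Kcnn4, Kcnj15, Kcnk6 and Kcne4 are deepest there too. Over its days Kcnd1 averaged 8.13 in LC at the lesion site, 8.02 rostrally and 8.07 caudally.

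Large falls were seen in the Shaw-type genes Kcnc1 and Kcnc2, which carry the rapidly deactivating current of fast-firing neurons, and all 3 tested members of the subfamily were lower. Kcnc1 read 6.79, 5.50 and 5.44 in LC on day 10, 5.35, 5.45 and 5.57 on day 20 and 4.93, 4.92 and 4.67 on day 30, against 11.17, 11.75 and 11.52 in the 3 uninjured cords. Every LC array lay at least 4 units below the lowest uninjured one, a mean difference of -6.07 (SE 0.38, adjusted p = 7.74e-16 in limma, lower on 3 of 3 days). The LC arrays of days 20 and 30 lay within the 3.16 to 6.71 spanned by the members that stayed under the filter, so the difference is against a level near background and no fold is given. Kcnc2 read 5.90, 5.39 and 5.88, then 5.22, 4.49 and 5.32, then 5.31, 5.46 and 5.07 on the same days of LC, against 10.69, 10.32 and 10.55 in uninjured cord, and again no array overlapped (-5.18, SE 0.43, adjusted p = 1.04e-12). All of these LC values of Kcnc2 also lay within 3.16 to 6.71, near background. Kcnc4, the transient member of the subfamily, differed by -1.53 (SE 0.17), but the second probe set of the gene gave 0.16 (adjusted p = 0.177), so its fall rests on 1 probe set.

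The Shal-type genes and their Kcnip partners fell together, 3 of 3 and 4 of 4. Kcnd2, the pore of the dendritic transient current, read 6.11, 5.21 and 5.75 in LC on day 10, 5.51, 5.33 and 5.75 on day 20 and 5.55, 5.22 and 5.08 on day 30, against 10.51, 10.32 and 10.20 in uninjured cord (-4.84, SE 0.30, adjusted p = 9.66e-16). Its partner Kcnip4 read 6.12, 6.45 and 6.68, then 5.24, 4.63 and 5.83, then 5.15, 5.58 and 6.02 in LC, against 10.55, 10.09 and 10.38 in uninjured cord (-4.60, SE 0.48, adjusted p = 2.18e-10). Neither gene had an LC array near the uninjured range. All of these LC values of both genes lay within the 3.16 to 6.71 spanned by the members under the filter. The differences are therefore against levels near background. The second probe sets of Kcnd2 and Kcnip4 also fell, with differences of -3.39 and -2.61. Kcnip1 (-3.69, SE 0.32) and Kcnd3 (-2.56, SE 0.27) followed, while Kcnip3, which also encodes the transcriptional repressor DREAM, differed by -0.97, Kcnip2 by -1.65 and Kcnd1 by -0.62, the last with overlapping arrays.

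All 5 tested Shaker-type genes and all 3 beta subunit genes were lower. Kcna1 and Kcna2, whose channels flank the nodes of myelinated axons, had 7.0, 7.56 and 8.12 and 7.40, 8.02 and 8.48 as lowest, median and highest of the 9 LC arrays, against 11.56, 11.54 and 11.52 and 12.05, 12.02 and 12.08 in uninjured cord. The differences were -3.96 (SE 0.26) and -4.08 (SE 0.32), with no overlap for either. Kcna6 (-2.74) and Kcna4, a rapidly inactivating subunit (-2.60), lay between these and Kcna5 (-0.46), for which the arrays overlapped. All uninjured arrays of Kcna5 were below the percentile, so its difference is near background. Among the beta subunits Kcnab1 had 6.36, 6.80 and 8.06 in LC and 10.79, 11.04 and 11.20 in uninjured cord (-3.98, SE 0.30, adjusted p = 1.51e-13), Kcnab2 differed by -3.35 and Kcnab3 by -2.13. The second probe sets of Kcnab1 and Kcnab2 fell less, with differences of -1.01 and -0.52.

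Results for the other voltage-gated genes were mixed. The modifier subunit genes Kcns3 (-1.83, SE 0.16) and Kcng2 (-0.89) were lower, and Kcnv1 was not called (0.15, adjusted p = 0.358). In the ether-a-go-go family, Kcnh1 (-1.39) and Kcnh2 (-1.35) were lower, while Kcnh6 (-0.24, adjusted p = 0.0542) and Kcnh3 (0.16, adjusted p = 0.0721) did not pass. Of the genes of the muscarine-sensitive M-current, Kcnq5 differed by -1.70 (SE 0.24), with 0.13 (adjusted p = 0.128) on the second probe set, and Kcnq3 by -0.061 (adjusted p = 0.586). The sodium-activated channel gene Kcnt1 fell, with a difference of -2.17, or -0.24 on the second probe set.

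Calcium-activated channels went in opposite directions. Kcnn4, the intermediate-conductance channel of leukocytes and microglia, read 7.56, 7.46 and 7.33 in LC on day 10, 8.65, 8.97 and 8.27 on day 20 and 7.84, 7.88 and 7.88 on day 30, against 4.28, 4.33 and 4.33 in uninjured cord, where no array reached the percentile. The log2 difference was 3.67 (SE 0.18, adjusted p = 2.03e-18), without overlap; Kcnn4 passed the filter through injured arrays alone, so no fold is given and the p only describes the gap. Kcnma1, the pore of the large-conductance channel, fell, with a difference of -1.03 and arrays of 6.74 to 8.82 in LC that reached into the 8.77 to 8.93 of uninjured cord. Its neuronal accessory subunit Kcnmb4 differed by -0.43, and the small-conductance channel gene Kcnn1 by -0.18 (adjusted p = 0.047), close to the threshold.

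The inward rectifiers split evenly, 4 higher and 4 lower of 9. Kcnj15 read 7.47, 7.82 and 7.10 in LC on day 10, 8.69, 9.02 and 8.35 on day 20 and 8.88, 8.93 and 8.58 on day 30, against 4.50, 4.72 and 4.19 in uninjured cord (log2 difference 3.85, SE 0.24, adjusted p = 9.2e-16). No array overlapped, and as with Kcnn4 all uninjured arrays were below the percentile, so no fold is given. Kcnj8, the pore of the ATP-sensitive channel of vessel walls, rose by 0.60, and the G protein-gated subunit gene Kcnj3 rose by 0.86 while its partner gene Kcnj6 fell (-3.74, SE 0.19). No uninjured array of Kcnj8 or Kcnj3 was above the percentile, so both passed the filter through injured arrays alone. Kcnj3 was above it in 9 arrays of the series, so its rise is near background. For Kcnj6 the second probe set gave 0.052 (adjusted p = 0.61), and for the glial subunit gene Kcnj16 (-0.88) it gave -0.025 (adjusted p = 0.905), so both falls rest on 1 probe set. Kcnj11, the pore of the neuronal ATP-sensitive channel, differed by -1.86 and Kcnj14 by -2.01, while Kcnj4 rose by 0.29 and Kcnj5 was not called (0.083, adjusted p = 0.476).

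Of the tandem-pore leak channels, 5 rose and 2 fell of 7. Kcnk6 read 8.99, 8.97 and 9.04 in LC on day 10, 9.17, 9.37 and 9.48 on day 20 and 8.97, 8.90 and 8.78 on day 30, against 5.89, 5.60 and 5.97 in uninjured cord (log2 difference 3.25, SE 0.094, adjusted p = 1.84e-24, again against uninjured arrays below the percentile). The LC arrays stayed within 8.78 to 9.48. Its second probe set rose by 1.74. Kcnk5, an alkaline-activated channel, rose by 1.24, Kcnk13, a channel of microglia, by 0.91 and the stretch-sensitive Kcnk2 by 0.79, whereas Kcnk4, another stretch-sensitive channel (-2.09), and the weak inward rectifier Kcnk1 (-1.74) fell. Like Kcnk6, Kcnk5 passed the filter through injured arrays alone. Kcnk4 was above the percentile in 5 arrays of the series, and all 3 uninjured arrays were among them. It thus passed the filter mainly through the uninjured group of this comparison. Over all days its LC arrays at the lesion site lay at 4.61 to 5.47. These are within the 3.16 to 6.71 spanned by the members under the filter, so its fall is against a level near background. The acid-sensitive Kcnk3 rose by 0.19. Both tested accessory subunit genes of the Kcne family rose: Kcne4 read 9.07, 9.06 and 8.79, then 9.43, 9.76 and 10.07, then 9.97, 10.26 and 10.07 in LC against 7.07, 7.39 and 7.31 in uninjured cord (2.35, SE 0.11, adjusted p = 1.12e-18), and Kcne3 rose by 0.36 with overlapping arrays.

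The lesion site pattern was there on day 3 and still there on days 60 and 90. On day 3, 32 members were lower and 8 higher (74.3% of all genes called, 33.5% lower and 40.8% higher, members' median -1.05 against 0.084 for all), and on days 60 and 90 the counts were 31 and 9 (75.4% of all genes called, 35% lower and 40.4% higher, medians -1.15 and 0.065). Kcnn4 was higher by 3.67 on day 3 and 3.14 late, Kcnk6 by 3.24 and 3.11, and Kcnj15 by 3.17 and 3.96. Below uninjured cord, Kcnc1 differed by -4.25 on day 3 and -6.03 late, Kcnc2 by -4.05 and -5.07, Kcna2 by -3.63 and -3.19, and Kcnip4 by -3.06 and -3.86. These 7 genes passed the test in both periods. Without the 3 arrays that stood apart the counts were 30 lower and 8 higher on day 3 and 30 lower and 9 higher late. Late LC set against day 3 gave 7 members higher and 9 lower, beside 53.6% of all genes called, 30% lower and 23.6% higher, or 11 lower and 9 higher without those arrays. Kcne4 went on climbing: the 6 late LC arrays had 9.79, 10.41 and 10.89 and the 3 of day 3 had 8.49, 8.73 and 8.80 (1.72, SE 0.12, adjusted p = 1.22e-13). Kcnk2 had 8.86, 9.58 and 10.02 late and 7.66, 7.92 and 8.03 on day 3 (1.62, SE 0.15, adjusted p = 1.28e-10), again without overlap. The second probe set of Kcnk2 gave, for late LC against uninjured cord, 0.026 against 1.70 on the probe set used. Kcnv1 also rose (0.88, SE 0.16), but all 18 LC arrays lay at 4.71 to 6.44, within the 3.16 to 6.71 of the members under the filter. Kcnc1 was lower late (4.73, 5.27 and 6.91, against 6.72, 7.36 and 7.62 on day 3, difference -1.79), as were Kcnd2 (-1.47, but -0.055 on the second probe set) and Kcne3 (-1.15), whose early rise of 1.04 was not called late (-0.12, adjusted p = 0.471).

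**Figure D2:**
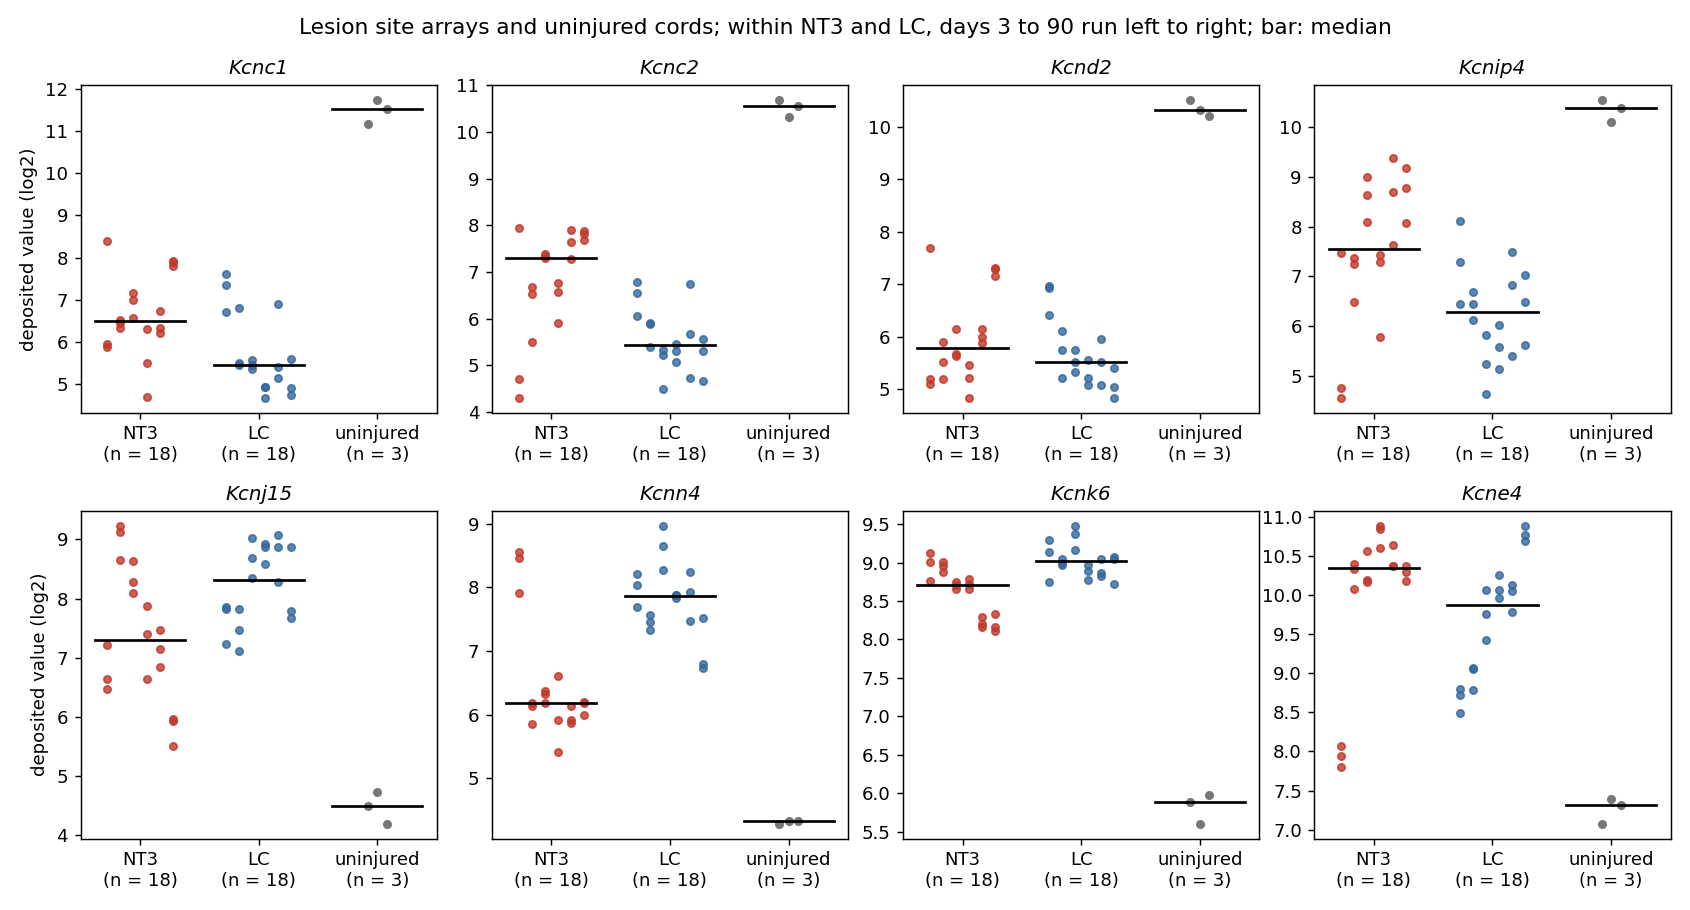
Deposited log2 value (vertical axis, its own range in each panel) of every NT3 and LC array at the lesion site and of the 3 uninjured cords for the 4 lowest and 4 highest members of LC on days 10 to 30. Points run left to right from day 3 to day 90 within NT3 and LC and bars are medians; in the upper panels every injured array is below the uninjured cords and in the lower panels every injured array is above them, while NT3 and LC overlap in all 8.

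Set against the neighbouring segments of LC on the same days, the lesion site had 11 members higher and 33 lower, beside 86.7% of all genes called, 38% lower and 48.7% higher, and 32 lower and 12 higher without the arrays that stood apart. Kcnc1 had 4.67, 5.45 and 7.62 at the lesion site, against 8.98, 9.97 and 10.40 in the 36 neighbouring arrays (-4.18, SE 0.10, adjusted p = 1.62e-67), and Kcnc2 (-3.99) and Kcnd2 (-3.37) did not overlap either. Kcnj15 had 7.10, 8.32 and 9.07 at the lesion site and 4.11, 4.68 and 6.54 beside it (3.43, SE 0.11, adjusted p = 2.68e-57), and Kcnk6 (1.70) and Kcne4 (1.62, with overlap) were higher too.

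Genes that hold these channels in place or work with them moved in the same comparison. Of the anchoring partners of axonal potassium channels, 0 higher and 13 lower of 14 were called (median -2.76, against 0.069 for all genes), led by Cntnap2, the adhesion protein that clusters Shaker-type channels (-4.77), Adam22 (-4.02) and the gene of its secreted ligand, Lgi1 (-3.76). Of the partner subunits of other channels, 1 higher and 6 lower of 7 were called: the Shal-type partner genes Dpp6 (-4.88) and Dpp10 (-2.51) fell, and Abcc9, the sulfonylurea receptor that pairs with Kcnj8, rose by 0.91. Potassium pump genes were 3 higher and 3 lower of 8 and potassium chloride cotransporter genes 2 higher and 2 lower of 4, with the neuronal Slc12a5 at -5.05 and Slc12a7 at 3.06. The cation channel genes of the Hcn family were 0 higher and 1 lower of 2.

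Cell type markers moved with the members, and their part in these differences was not tested. At the lesion site of LC on days 10 to 30 all 19 tested neuron markers were lower (median -4.17), as were 9 of 10 oligodendrocyte markers (-3.54) and 10 of 11 astrocyte markers (-2.39). Microglia and macrophage markers were 13 higher and 1 lower of 15 (2.43), fibroblast markers 8 higher and 1 lower of 9 (4.52) and T cell markers 9 higher and 0 lower of 9 (2.56). Per array, the mean over the neuron list relative to uninjured cord was -4.26, -3.46 and -2.38 as lowest, median and highest of the 18 LC arrays of the lesion site. Over the 56 group means, the 33 members that were lower correlated with the neuron list at -0.074 to 0.99, with a median of 0.89 and 16 of them above 0.9. The 12 members that were higher ran from -0.93 to -0.086. Among the lower members, high values were not confined to the neuron list, where Kcnc2, Kcnd2 and Kcna2 stood at 0.99, 0.95 and 0.95. These 3 genes stood at 0.98, 0.97 and 0.93 with the oligodendrocyte list and at 0.89, 0.87 and 0.94 with the astrocyte list. With the microglia and macrophage list, Kcnn4 correlated at 0.83, Kcnk13 at 0.83, Kcnk6 at 0.52 and Kcnj15 at 0.10, and the median of the 12 higher members was 0.16. With the fibroblast list the same 4 genes stood at 0.44, 0.32, 0.91 and 0.80. These 56 points share arrays, the uninjured cords and the contrast between segments, so the coefficients describe the series and carry no test.

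Beside the lesion, members of the same subfamilies were lower than in uninjured cord: in each of 6 comparisons 4 of 5 Kcna, 3 of 3 Kcnab, 3 of 3 Kcnc, 4 of 4 Kcnip and at least 2 of 3 Kcnd genes. Rostrally 33 members were lower and 10 higher in LC on days 1 and 3 (67.7% of all genes called, 31.8% lower and 36% higher), 32 and 8 on days 10 to 30 (60.5% of all genes called, 31.3% lower and 29.1% higher), and 31 and 4 on days 60 and 90 (53.6% of all genes called, 28.7% lower and 24.9% higher). Caudally the counts were 32 and 9 (65% of all genes called, 30.7% lower and 34.3% higher), 31 and 9 (61.7% of all genes called, 32.5% lower and 29.2% higher), and 32 and 5 (56.6% of all genes called, 31.5% lower and 25.2% higher). The members' median was -0.76, -0.49 and -0.45 rostrally and -0.53, -0.60 and -0.52 caudally over the 3 periods, while that of all genes stayed between -0.044 and 0.030. All comparisons with uninjured cord share its 3 arrays. Without uninjured replicate 2 the rostral counts were 32 lower and 9 higher, 30 lower and 6 higher, and 28 lower and 4 higher, and the caudal ones 30 lower and 8 higher, 30 lower and 8 higher, and 29 lower and 5 higher. With any single array left out, the share of all genes called ran 63.6% to 68%, 53.4% to 61.6% and 46.2% to 52.1% rostrally. Caudally it ran 60% to 64.9%, 54.7% to 62.1% and 47.5% to 57%.

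Early on the transient-current gene Kcnd2 was lowest of all members on both sides. It had 7.65, 8.45 and 8.77 in the 6 rostral LC arrays of days 1 and 3 and 8.44, 8.54 and 9.41 in the caudal ones, against 10.51, 10.32 and 10.20 in uninjured cord (-2.04 rostrally, SE 0.17, and -1.68 caudally, SE 0.22). Kcna2 had 9.92, 10.28 and 10.59 rostrally and 10.46, 10.67 and 11.23 caudally, against 12.05, 12.02 and 12.08, also without overlap. Kcnc1 was lower too, with differences of -1.77 rostrally and -1.42 caudally early and -1.33 and -1.48 late. On both sides the beta subunit gene Kcnab2, at -1.53 rostrally and -1.65 caudally on days 10 to 30, and the modifier gene Kcns3, at -1.15 and -1.32 late, came next to these. Kcnip4 was lower in all 6 comparisons, with differences of -1.26 to -0.59, but its second probe set gave 0.26 rostrally and 0.19 caudally late.

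Higher members beside the lesion were led by Kcnn4 and Kcnk6 in every period. Marker lists moved in the same comparisons, and their part was not tested: on days 10 to 30 microglia and macrophage markers were 15 higher and 0 lower of 15 rostrally (median 2.12) and 15 higher and 0 lower of 15 caudally (2.17). Fibroblast markers were 8 higher and 1 lower of 9 rostrally (2.72) and 8 higher and 1 lower of 9 caudally (2.48), and neuron markers 1 higher and 18 lower of 19 rostrally (-0.87) and 1 higher and 18 lower of 19 caudally (-0.81). Over the 21 LC arrays of each side the mean of the microglia and macrophage list had 1.38, 2.22 and 2.64 rostrally and 1.10, 2.17 and 2.89 caudally relative to uninjured cord. Kcnn4 had 6.11, 7.0 and 7.27 in rostral LC and 5.97, 7.03 and 7.54 in caudal LC on days 10 to 30, against 4.28, 4.33 and 4.33 in uninjured cord (2.61, SE 0.16, adjusted p = 1.64e-19 rostrally, 2.53, SE 0.17, adjusted p = 2.19e-17 caudally). Kcnk6 had 6.90, 7.38 and 7.86 and 6.74, 7.33 and 8.22, against 5.89, 5.60 and 5.97, differences of 1.54 and 1.55. Neither gene overlapped the uninjured cords in any of the 6 comparisons. Kcnj15 rose early (1.13 rostrally, 0.97 caudally), Kcne4 was higher by 0.91 rostrally and Kcnk13 by 0.85 caudally on days 10 to 30. LC arrays of Kcnj15 reached at most 6.66 rostrally and 6.40 caudally, within the 3.16 to 6.71 spanned by the members under the filter. Its differences beside the lesion are therefore between levels near background. Kcnj8 rose on days 10 to 30 by 0.33 rostrally (adjusted p = 0.0177) and 0.26 caudally (adjusted p = 0.0185), but with the beta-actin difference as a covariate these were 0.0088 and 0.070 (adjusted p = 0.966 and 0.679). All uninjured arrays of Kcnj8 were below the percentile.

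Late LC set against early LC had more members higher than lower rostrally. There 24 members were higher late and 6 lower (58.2% of all genes called, 32.6% lower and 25.6% higher), against 12 and 14 caudally (58.2% of all genes called, 35.5% lower and 22.7% higher). Rostral Kcna2 had 11.24, 11.44 and 11.49 late and 9.92, 10.28 and 10.59 early (1.16, SE 0.11, adjusted p = 2.25e-12), without overlap, and Kcnd2 (0.95) and Kcnj11 (0.69) did not overlap either. Caudal Kcna2 rose by 0.64 with overlap, Kcnv1 by 0.76 and the glial inward rectifier subunit gene Kcnj16 by 0.73. Kcnv1 was above the percentile in just 5 of the 167 arrays of the series. On both sides Kcne3, Kcnj15 and Kcnmb4 were the 3 lowest: Kcne3 differed by -0.98 rostrally and -1.39 caudally, Kcnj15 by -1.14 and -1.14, and Kcnmb4 by -0.84 and -0.92. Both differences of Kcnj15 are between levels near background. The neuron list stood at a median of -0.81 relative to uninjured cord over the 21 rostral LC arrays, and its part was not tested.

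Between rostral and caudal LC no member was called by limma (0 called, beside 0.507% of all genes called, 0.116% lower and 0.39% higher; 3 of 50 had an unadjusted p under 0.05). The differences ran from -0.19 to 0.14.

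At the lesion site, NT3 cords had more signal than LC for most Shaker-type, Shaw-type, Shal-type and Kcnip genes and less for Kcnn4 and most called inward rectifier and leak channel genes, over days 3 to 90. In limma 23 members were higher and 9 lower of 50, beside 41.9% of all genes called, 22.9% lower and 19% higher, with medians of 0.18 for members and -0.013 for all genes. No called member had NT3 and LC arrays that did not overlap. By subfamily 5 of 5 Kcna, 2 of 3 Kcnab, 4 of 4 Kcnip, 2 of 3 Kcnc and 2 of 3 Kcnd genes were higher, while Kcnj had 2 higher and 4 lower and Kcnk 2 and 4. Without the array of NT3 and the array of LC that stood apart, 22 were higher and 8 lower. On days 10, 30 and 60, when RT1-CE10 was alike, 14 were higher and 7 lower, beside 30.4% of all genes.

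Kcnip4 had 4.56, 7.55 and 9.38 as lowest, median and highest of 18 NT3 arrays, against 4.63, 6.28 and 8.12 in 18 LC arrays (1.30, SE 0.24, adjusted p = 5.02e-05, higher on 5 of 6 days). Kcnc2 had 4.30, 7.29 and 7.94 in NT3 and 4.49, 5.43 and 6.79 in LC (1.28, SE 0.21, adjusted p = 1.41e-05). Both medians were higher in NT3, and both stayed below every uninjured array. Kcnab1 (1.05, SE 0.15, adjusted p = 1.71e-06) gave 0.074 (adjusted p = 0.555) on the second probe set, and Kcnc1 (0.92, SE 0.19, adjusted p = 0.000186) gave 0.59 (adjusted p = 0.0899) on the days with RT1-CE10 alike. Kcnma1, the large-conductance channel, had 7.12, 8.63 and 10.58 in NT3 and 6.74, 7.60 and 8.82 in LC, and was higher on all 6 days (0.91, SE 0.10, adjusted p = 8.62e-09). Lower in NT3 was Kcnn4, with 5.41, 6.18 and 8.55 against 6.74, 7.86 and 8.97 in LC (-1.35, SE 0.090, adjusted p = 2.49e-13), lower on 5 of 6 days.

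Markers moved in this comparison too, and their part was not tested. The neuron list was 13 higher and 0 lower of 19 (median 0.94), oligodendrocyte markers 9 higher and 0 lower of 10 (0.61), microglia and macrophage markers 1 higher and 8 lower of 15 (-0.22), T cell markers 0 higher and 9 lower of 9 and skeletal muscle markers 13 higher and 0 lower of 13 (2.00). Mean levels relative to uninjured cord had -4.05, -2.58 and -1.55 as lowest, median and highest for neuron markers in NT3, against -4.26, -3.46 and -2.38 in LC. For skeletal muscle markers these were 0.13, 2.07 and 3.94 in NT3 and -1.16, -0.012 and 2.84 in LC. Of the potassium pathway, 12 higher and 0 lower of 14 anchoring partners and 5 higher and 0 lower of 7 partner subunits were called, with Cntnap2 at 0.95 and Dpp6 at 1.16.

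The NT3 difference at the lesion site changed with the day for 30 members by limma's F-test, beside 50.6% of all genes. RT1-CE10 was alike in NT3 and LC on days 10, 30 and 60 alone. On days 3 and 20, 2 of 3 LC arrays lay above 9, and on day 90 all 3, while no NT3 array of these days did. The F-test was not repeated on the alike days, and the part of this difference was not tested. Members with a higher mean in NT3 numbered 22, 28, 35, 25, 35 and 38 of 50 on days 3, 10, 20, 30, 60 and 90, where the share of all genes above 0 was 49.1%, 53.7%, 44.7%, 58.3%, 43.5% and 41.1%. The widest change was in Kcnip4, whose NT3 minus LC differences were -1.69, 0.62, 3.34, 1.26, 1.99 and 2.30 on those days. On day 3 its NT3 arrays had 7.47, 4.56 and 4.77 and its LC arrays 7.30, 8.12 and 6.44; on day 20 they had 8.09, 9.0 and 8.63 and 5.24, 4.63 and 5.83. Replicate 1, the array that stood apart, is the highest of the NT3 arrays of day 3. Without the 3 arrays that stood apart, 32 members changed with the day.

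Other members followed their own course. Kcnj15 differed by -0.87, 1.54, -0.35, -1.49, -1.59 and -2.31 over the same days: NT3 arrays had 9.13, 8.65 and 9.23 on day 10, above the 7.47, 7.82 and 7.10 of LC, and 5.97, 5.92 and 5.50 on day 90, below the 7.67, 8.87 and 7.79 of LC. Neither day had overlapping arrays. Kcnc2 differed by -0.82, 0.51, 2.33, 1.13, 1.90 and 2.62, Kcnc1 by -0.49, 0.52, 1.44, 0.66, 0.60 and 2.80 and Kcnd2 by -0.78, -0.15, 0.29, -0.11, 0.49 and 2.16. For Kcnc1 and Kcnc2 the day 90 arrays of NT3, 7.80, 7.93 and 7.89 and 7.89, 7.69 and 7.81, were all above those of LC, 4.90, 4.73 and 5.59 and 5.30, 4.67 and 5.56. Kcnn4, lower in NT3 on 5 of 6 days, had its widest gap on day 20, with 6.33, 6.38 and 6.19 in NT3 and 8.65, 8.97 and 8.27 in LC. The mean of the neuron list relative to uninjured cord was -3.39 in NT3 and -2.61 in LC on day 3, and -1.80 in NT3 and -3.56 in LC on day 90. Days 3, 20 and 90 are those on which RT1-CE10 was unlike in NT3 and LC.

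**Figure D3:**
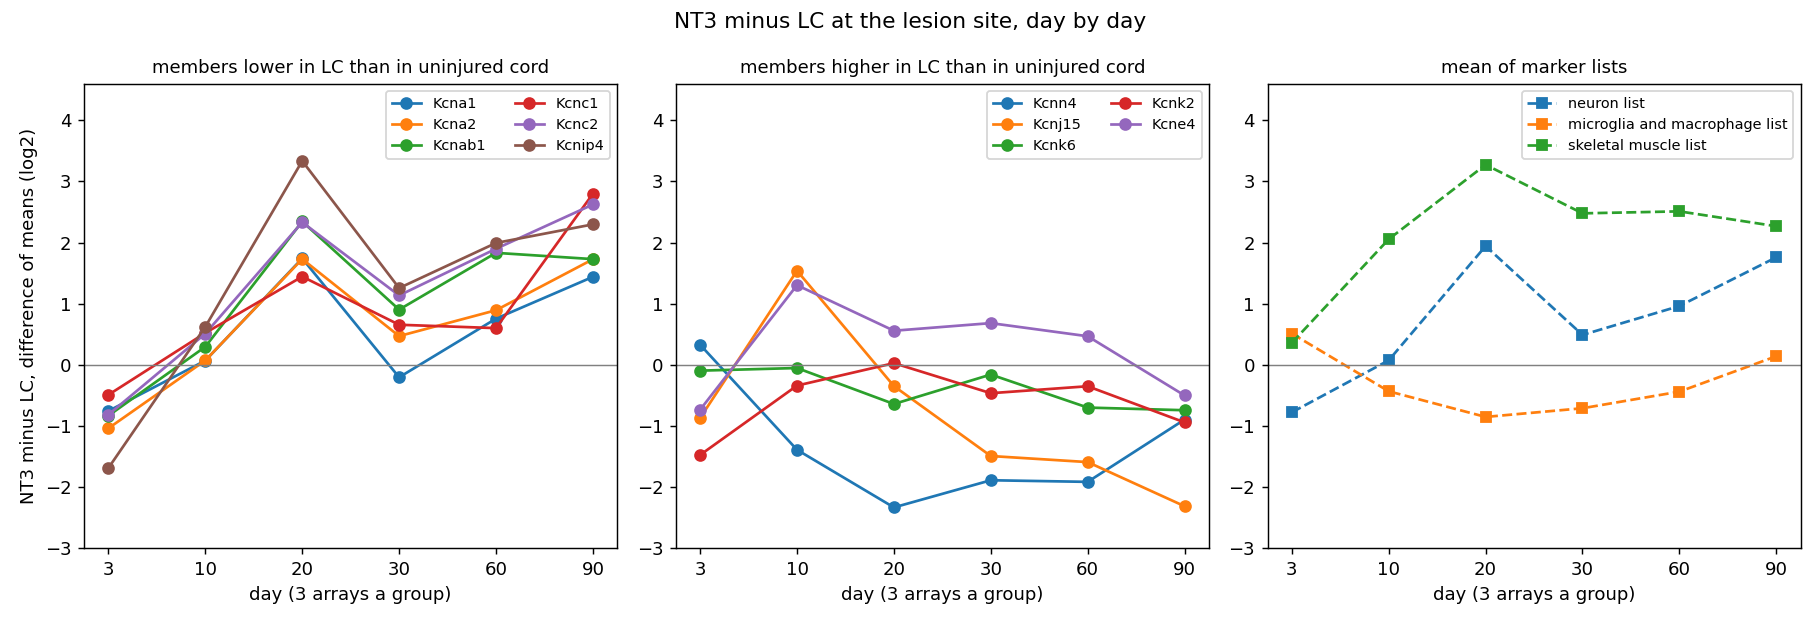
NT3 minus LC at the lesion site (difference of group means, log2, vertical axis) against day (equally spaced, 3 arrays a group) for 6 members lower and 5 members higher in LC than in uninjured cord, and for the means of 3 marker lists. The members of the left panel lie below 0 on day 3 and above it on days 20, 60 and 90, Kcnip4 reaching 3.34 on day 20, and the neuron list takes the same side of 0 on these days. RT1-CE10 was alike in NT3 and LC on days 10, 30 and 60 alone.

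Beside the lesion few members were called between NT3 and LC. Rostrally 2 members were higher and 0 lower (2.77% of all genes called, 1.61% lower and 1.15% higher; 8 of 50 had an unadjusted p under 0.05). Kcnd2 had 8.60, 9.26 and 9.84 in 21 NT3 arrays and 7.65, 9.13 and 9.39 in 21 LC arrays (0.30, SE 0.073, adjusted p = 0.0154), and Kcna4 had 5.66, 6.20 and 6.68 and 5.24, 5.93 and 6.86 (0.21, SE 0.057, adjusted p = 0.0368), both with overlap. Neither passed on days with RT1-CE10 alike, where Kcnd2 differed by 0.0016 and Kcna4 by 0.051, nor on days 10 to 90 (0.064 and 0.15). Kcna4 was above the percentile in 12 of the 167 arrays of the series, so its difference is near background. Caudally 8 members were higher and 0 lower, beside 9.76% of all genes called, 3.85% lower and 5.91% higher: Kcnab2 (0.27, SE 0.070, adjusted p = 0.0123), Kcnma1 (0.23, SE 0.056, adjusted p = 0.00744), Kcnc1 (0.24), Kcna2 (0.21), Kcnt1 (0.17), Kcnq5 (0.17), Kcnj14 (0.15) and Kcnj16 (0.14). All overlapped, 1 was called on the days with RT1-CE10 alike, beside 1.96% of all genes, and the second probe sets gave 0.047 for Kcnab2 and -0.021 for Kcnt1, whose direction thus turned.

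Against the empty tube the rostral difference was wider. NT3 had 28 members higher and 5 lower than ET rostrally (30.2% of all genes called, 12.8% lower and 17.4% higher), or 18 and 3 on days with RT1-CE10 alike, beside 16.2% of all genes on those. The sizes were small: Kcnd2 had 8.60, 9.26 and 9.84 in NT3 and 8.17, 8.74 and 9.34 in ET (0.41, SE 0.074, adjusted p = 4.41e-05). Kcna4 had 5.66, 6.20 and 6.68 and 5.41, 5.78 and 6.16 (0.39, SE 0.058, adjusted p = 2.21e-06), and Kcnc1 differed by 0.38, each of these 2 on 7 of 7 days. Kcnj6 (0.40) and Kcnab1 (0.40) were also higher on 7 of 7 days, with -0.065 and 0.12 on the second probe sets. Kcnj15 was lower (4.22, 5.04 and 6.61 in NT3, 4.85, 5.63 and 6.33 in ET, -0.44, SE 0.13, adjusted p = 0.00799). For Kcna4 and Kcnj15 both arms lay within the 3.16 to 6.71 spanned by the members under the filter, near background. Every called member overlapped. The neuron list was 18 higher and 0 lower of 19 (median 0.30) and the fibroblast list 1 higher and 8 lower of 9 (-0.60) in this comparison, and their part was not tested.

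ET itself lay below LC rostrally for 22 members and above it for 4, beside 22.8% of all genes called, 14.9% lower and 7.9% higher. On days with RT1-CE10 alike the counts were 4 and 0, beside 4.09% of all genes. The neuron list was 0 higher and 16 lower of 19 (median -0.25) and the fibroblast list 8 higher and 1 lower of 9 (0.67) in ET against LC, and their part was not tested. Kcnc1 had 9.14, 9.66 and 10.29 in ET and 8.98, 9.99 and 10.27 in LC (-0.34, SE 0.070, adjusted p = 0.000377), Kcnab1 differed by -0.30 and Kcnab2 by -0.31, and Kcnj15 (0.51, SE 0.13, adjusted p = 0.00347) and Kcne4 (0.37) were higher in ET. Kcnj15 stayed near background in both arms. Kcnj6 (-0.29) gave 0.017 on the second probe set. Caudally few members were called in either comparison with ET. NT3 had 1 higher (Kcnj14, 0.12) and 1 lower (Kcnk2, -0.21, or -0.0096 on the second probe set) than ET, beside 8.38% of all genes called, 3.73% lower and 4.65% higher, with 12 at an unadjusted p under 0.05. ET had 1 higher than LC (Kcnma1, 0.24, SE 0.056, adjusted p = 0.0165), beside 3.5% of all genes called, 1.79% lower and 1.72% higher. NT3 and ET were both set against the same LC arrays, so their comparisons are not independent.

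By day, NT3 minus LC changed for 21 members rostrally, beside 28.2% of all genes, and for 3 caudally, beside 7.18%. Over the alternatives the rostral count ran 6 to 34 and the caudal one 1 to 31, and 13 single arrays moved the caudal one by over 1.5 times (1 to 9). Rostral Kcna2 differed by 1.04, 0.60, -0.21, 0.093, -0.18, -0.20 and 0.25 on days 1, 3, 10, 20, 30, 60 and 90. On day 1 its NT3 arrays had 11.64, 11.50 and 11.13, against 10.59, 10.43 and 10.15 in LC, with no overlap, and by day 60 they had 11.24, 11.26 and 11.32 against 11.47, 11.46 and 11.49. Rostral Kcnd2 differed by 1.09, 0.71, -0.17, 0.086, 0.061, 0.030 and 0.31, again with the widest gap on day 1. The neuron list stood at -0.40 in NT3 and -0.83 in LC on day 1 relative to uninjured cord, and its part was not tested. On that day 43 of 50 members had a higher mean in NT3 than in LC, against 46.9% of all genes, and on day 30 14 of 50, against 41.2%. Rostral RT1-CE10 lay above 9 in all 3 LC arrays of day 1 and in 1 of day 3, but in no NT3 array of these days. It was alike on days 10, 20, 30 and 60, where Kcna2 ran from -0.21 to 0.093. Its part in the early gaps was not tested. The NT3 effect differed between the segments for 1 member, Kcnj14 (rostral minus caudal -0.24, SE 0.053, adjusted p = 0.0348), beside 0.108% of all genes called, 0.0914% lower and 0.0166% higher. That call is lost in a single fit of all arrays (adjusted p = 0.167), in a fit of the compared groups alone (0.0537), with the beta-actin covariate (0.08) and when any 1 of 16 of the 84 arrays is left out.

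**Figure D4:**
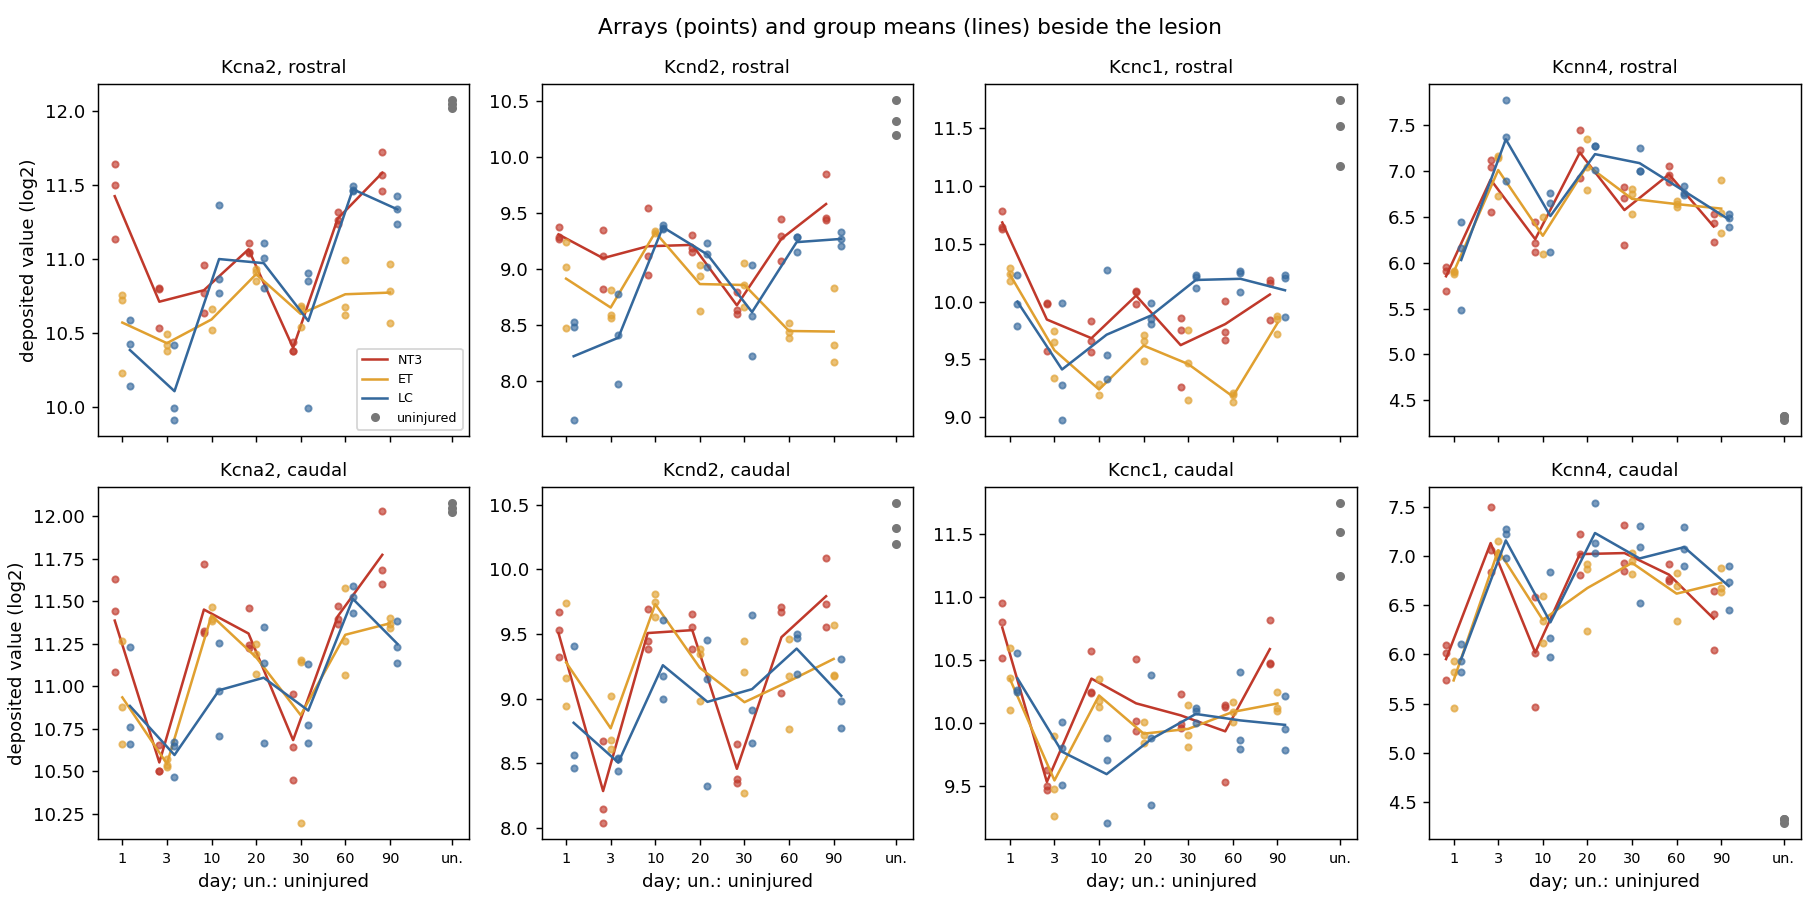
Deposited log2 values (vertical axis, its own range in each panel) of Kcna2, Kcnd2, Kcnc1 and Kcnn4 by day in NT3, ET and LC arrays (points; lines join group means) rostral and caudal to the lesion, with the 3 uninjured cords at the right. Kcnd2 and Kcnc1 lie below the uninjured cords in all injured arrays and Kcnn4 above them in all, Kcna2 reaches 12.03, and rostral Kcna2 and Kcnd2 on day 1 show NT3 above LC. On that day RT1-CE10 was above 9 in all rostral LC arrays and below it in all rostral NT3 arrays.

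The remaining 24 members stayed under the filter and were not tested. Of these, 22 never exceeded the percentile and 2 did so in 1 or 2 arrays, and their values lay between 3.16 and 6.71. They were Kcna3, Kcnb2, Kcne1, Kcne2, Kcng3, Kcnh4, Kcnh5, Kcnh7, Kcnh8, Kcnj1, Kcnj12, Kcnj13, Kcnj2, Kcnj9, Kcnk10, Kcnk12, Kcnk15, Kcnk9, Kcnmb1, Kcnn3, Kcnq1, Kcns1, Kcns2 and Kcnv2. Among them are Kcna3, a Shaker-type channel of lymphocytes, and Kcnj2, a strong inward rectifier of muscle and glia, whose uninjured arrays had 5.32, 5.27 and 5.16 and 4.96, 4.91 and 4.74. Of the 50 tested members, 13 were above the percentile in all 167 arrays and 39 in all 3 uninjured arrays.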

How the data were processed

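Gene expression was measured on 167 Affymetrix rat arrays in 56 groups. The deposited values are on a log2 scale: per the submitters' processing notes the authors used GCOS, RMA (background correction, normalization and summary of probes) and Affymetrix Expression Console, with versions and the arrays normalised together not given in the sources used here. Medians of arrays lay between 7.10 and 7.25. RMA draws low signals together, so folds of dim genes are understated.

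Of 31099 probe sets, 20832 had 1 symbol in the annotation (436 several, 9780 none). Each gene was read from its highest-mean probe set and tested if 3 or more arrays had it above their 40th percentile (12041 genes). limma 3.58.1 (R 4.3.3) fitted group means per segment with the uninjured cords (all groups for the lesion site against its neighbours, rostral and caudal groups together for these segments), averaged groups over days, and the Benjamini-Hochberg adjustment ran over all 12041 genes with a threshold of 0.05. The fits were tested on simulated data. Early was days 1 and 3 (lesion site 3), intermediate 10 to 30, late 60 and 90. Named with values were up to 6 highest and 6 lowest called members at the lesion site, 3 and 3 in other injury comparisons, 6 per treatment comparison and a fixed set of members; the rest were added to account for every member. The members and lists were chosen with earlier results of these data known. Same-numbered samples of different segments correlated at means of 0.030 to 0.086, and different-numbered ones at -0.043 to -0.015. Not all same-numbered pairs were over 0.1, and the numbers were not taken to pair samples. The same-numbered mean was the higher for every pair of segments, so whether the numbers pair samples is not settled. Alternatives were other filters, normalizations, probe sets, fits, weights, blocks, a beta-actin covariate, days with RT1-CE10 alike and arrays left out. Promoters came from RefSeq (GRCr8).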

Additional observations from a re-analysis of the deposited data

Results flagged for a closer look

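The difference NT3 minus LC was tested for change over days in each segment, and it changed for 21 members rostrally, 30 at the lesion site and 3 caudally, beside 28.2%, 50.6% and 7.18% of all genes. Rostrally the gap between the highest and the lowest day was 1.26 for Kcnd2, 1.25 for Kcnc1, 1.25 for Kcna2, 1.25 for Kcne4, 1.10 for Kcnab1 and 1.02 for Kcnj6 (log2). Rostral Kcne4 differed by -0.33, -0.49, 0.76, 0.21, 0.44, 0.12 and -0.055 and Kcnc1 by 0.69, 0.43, -0.030, 0.17, -0.56, -0.39 and -0.037 on days 1, 3, 10, 20, 30, 60 and 90. At the lesion site the gap was 5.02 for Kcnip4, 3.85 for Kcnj15, 3.44 for Kcnc2, 3.29 for Kcnc1, 3.18 for Kcnab1 and 2.93 for Kcnd2. Caudally it was 1.54 for Kcnj15, 1.39 for Kcnd2 and 0.79 for Kcnmb4, the 3 members called there. Caudal Kcnj15 differed by -0.23, 0.72, -0.18, -0.82, 0.45, 0.13 and 0.022 and Kcnd2 by 0.69, -0.22, 0.25, 0.55, -0.62, 0.089 and 0.77 over the 7 days. The caudal Kcnj15 arrays reached at most 6.21 in NT3 and 6.40 in LC, near background. The NT3 effect of Kcnj14, rostral minus caudal, was -0.24; NT3 minus LC was -0.090 rostrally and 0.15 caudally. RT1-CE10 was alike in NT3 and LC on days 10, 20, 30 and 60 rostrally and caudally, and on days 10, 30 and 60 at the lesion site. The tests of change over days used all days, so its part in them was not tested. Groups had 3 arrays a day, and no group was large enough to test single arrays as far from the others.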

How the results depend on the processing

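Counts of members called stayed within 1.5 times in 908 of the recomputed counts and left that range in 136; the cause was not tested. With the filter at the 60th percentile the count of members called was 1 for rostral NT3 against LC. With the mean of probe sets the count of members called was 4 for caudal NT3 against LC, 0 for caudal ET against LC and 1 for caudal NT3 minus LC by day. With the second probe set (fewer members have one) the count of members called was 23 for rostral LC against uninjured cord intermediate, 22 for rostral LC against uninjured cord late, 28 for lesion site LC against uninjured cord intermediate, 26 for caudal LC against uninjured cord early, 24 for caudal LC against uninjured cord intermediate, 23 for caudal LC against uninjured cord late, 10 for lesion site LC late against early, 15 for caudal LC late against early, 28 for lesion site LC against neighbouring LC, 18 for lesion site NT3 against LC, 3 for caudal NT3 against LC, 19 for rostral NT3 against ET, 11 for rostral ET against LC, 0 for caudal ET against LC, 11 for rostral NT3 minus LC by day, 19 for lesion site NT3 minus LC by day and 1 for caudal NT3 minus LC by day. With a single fit of all arrays the count of members called was 26 for lesion site LC late against early, 0 for rostral NT3 against LC, 3 for caudal NT3 against LC, 6 for rostral NT3 minus LC by day and 0 for rostral NT3 effect against caudal NT3 effect. With fits of the compared groups alone the count of members called was 1 for rostral NT3 against LC, 5 for caudal NT3 against ET and 0 for rostral NT3 effect against caudal NT3 effect. With array weights the count of members called was 5 for rostral NT3 against LC, 13 for caudal NT3 against LC, 7 for caudal NT3 against ET, 4 for caudal ET against LC, 34 for rostral NT3 minus LC by day and 31 for caudal NT3 minus LC by day. With the beta-actin covariate the count of members called was 4 for caudal NT3 against LC, 5 for caudal NT3 minus LC by day and 0 for rostral NT3 effect against caudal NT3 effect. On the days with RT1-CE10 alike the count of members called was 1 for rostral NT3 against LC, 21 for lesion site NT3 against LC, 1 for caudal NT3 against LC, 21 for rostral NT3 against ET, 4 for rostral ET against LC and 4 for caudal ET against LC. On days 10 to 90 the count of members called was 0 for rostral NT3 against LC. Left out in turn, arrays gave counts of 41 to 43 (rostral LC against uninjured cord early), 36 to 40 (rostral LC against uninjured cord intermediate), 32 to 35 (rostral LC against uninjured cord late), 38 to 41 (lesion site LC against uninjured cord early), 42 to 46 (lesion site LC against uninjured cord intermediate), 39 to 41 (lesion site LC against uninjured cord late), 38 to 42 (caudal LC against uninjured cord early), 38 to 42 (caudal LC against uninjured cord intermediate), 34 to 38 (caudal LC against uninjured cord late), 28 to 33 (rostral LC late against early), 11 to 18 (lesion site LC late against early), 21 to 25 (caudal LC late against early), 42 to 44 (lesion site LC against neighbouring LC), 0 to 0 (rostral LC against caudal LC), 1 to 5 (rostral NT3 against LC), 30 to 34 (lesion site NT3 against LC), 3 to 9 (caudal NT3 against LC), 30 to 34 (rostral NT3 against ET), 1 to 4 (caudal NT3 against ET), 21 to 28 (rostral ET against LC), 1 to 3 (caudal ET against LC), 17 to 27 (rostral NT3 minus LC by day), 29 to 33 (lesion site NT3 minus LC by day), 1 to 9 (caudal NT3 minus LC by day), 0 to 1 (rostral NT3 effect against caudal NT3 effect). 21 arrays moved the rostral count for NT3 against LC by over 1.5 times, 14 the caudal one, 23 that for caudal NT3 against ET, 4 that for caudal ET against LC, 13 that for caudal NT3 minus LC by day and 16 that for the NT3 effect between segments, so these counts rest on single arrays. The share of all genes called moved too over these omissions. In the same order it ran 1.3% to 6.23%, 5.64% to 13.9%, 4.92% to 12.9%, 1.32% to 9.07%, 3.68% to 10.3% and 0.0332% to 0.158%. The other counts of this section stand without that share and do not set members apart from all genes. The sign turned for Kcnj16 0.0049 (caudal LC against uninjured cord late, mean of probe sets), Kcnj16 0.10 (rostral LC against uninjured cord intermediate), Kcnip4 0.26 (rostral LC against uninjured cord late), Kcnj16 0.026 (rostral LC against uninjured cord late), Kcnj6 0.12 (lesion site LC against uninjured cord early), Kcnq5 0.033 (lesion site LC against uninjured cord early), Kcnc4 0.16 (lesion site LC against uninjured cord intermediate), Kcnj6 0.052 (lesion site LC against uninjured cord intermediate), Kcnq5 0.13 (lesion site LC against uninjured cord intermediate), Kcnj6 0.043 (lesion site LC against uninjured cord late), Kcnq5 0.069 (lesion site LC against uninjured cord late), Kcnj16 0.43 (lesion site LC against uninjured cord late), Kcnj16 0.078 (caudal LC against uninjured cord intermediate), Kcnip4 0.19 (caudal LC against uninjured cord late), Kcnj16 0.26 (caudal LC against uninjured cord late), Kcnt1 -0.021 (caudal NT3 against LC), Kcnj6 -0.065 (rostral NT3 against ET) and Kcnj6 0.017 (rostral ET against LC), on the second probe set unless stated. The replicate numbers were not shown to pair samples; with the number as a block the lesion site gave 45 called on days 10 to 30 and 32 for NT3 against LC, no count moved by over 1.5 times, and Kcnn1 at the lesion site on days 10 to 30 was -0.17 (adjusted p = 0.0762). Differences of members with all uninjured arrays under the percentile are limited by signal over background, and 3 uninjured arrays limit every comparison with them.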

Other observations

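At the lesion site the empty tube was sampled on day 3 alone and entered no comparison. Its 3 arrays had 7.51, 7.42 and 7.02 for Kcnc1, 6.62, 6.85 and 6.70 for Kcnd2, 6.40, 6.23 and 6.08 for Kcnip4 and 7.72, 7.81 and 7.73 for Kcna2. For Kcnn4 they had 8.28, 8.26 and 8.43, for Kcnk6 8.97, 8.85 and 8.79, for Kcnj15 6.54, 6.36 and 6.83 and for Kcne4 7.72, 7.80 and 7.62. All of the first 4 genes lay below, and all of the last 4 above, the uninjured arrays. On the same day Kcnc1 had 8.39, 5.88 and 5.96 in NT3 and 7.62, 6.72 and 7.36 in LC, and Kcnip4 had 7.47, 4.56 and 4.77 in NT3 and 7.30, 8.12 and 6.44 in LC. Among the members below the filter, Kcna3 had 5.37, 5.19 and 5.16 in LC and Kcnj2 5.00, 4.71 and 4.79 at the lesion site on day 20, against 5.32, 5.27 and 5.16 and 4.96, 4.91 and 4.74 in uninjured cord.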
